A study of Mus musculus with 44 samples.

Results

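Naive CD4 T cells of mice lacking microRNA-150 (miR-150 knockout, KO) were compared with those of wild-type mice (WT) after culture toward T helper 1 (Th1) cells. The comparison took the 5 libraries labelled Th1 KO and the 5 labelled Th1 WT, 10 of the 44 libraries of the series, with the counts of the 2 sequencing lanes summed for each library. Both groups were of strain C57BL/6NTac. Their splenic naive CD4 T cells had been sorted, plated at 150000 cells per well on anti-CD3 with soluble anti-CD28, and cultured for 3 days with IL-12 while IL-4 was blocked by antibody, so KO and WT differed by label in genotype alone. The other groups used here are KO and WT cells kept on anti-CD3 and anti-CD28 only (Th0), KO and WT cells cultured with TGF-beta 1 while interferon-gamma was blocked (Treg), and miR-150 knock-in (KI) cells in Th1 culture, with 5 libraries each. The labels give neither the design of the KO or KI allele, nor the cells in which it acts, nor the age, sex or number of the mice. Nothing states that each library came from its own mouse, so the p-values measure spread between libraries. The model estimates that spread over all 9 groups of the series, not from the 10 Th1 libraries alone.

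A microRNA guides the Argonaute protein complex to partly matching sites in messenger RNAs, whose translation and stability it lowers. miR-150 is abundant in mature resting lymphocytes, declines when T cells are activated, and is best known for repressing the transcription factor MYB. Th1 cells arise when interleukin-12 acts through STAT4 and the factor T-bet, are defined by secretion of interferon-gamma, and direct macrophages against intracellular microbes.

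The 3' arm of the microRNA named in the KO label, miR-150-3p, is shown. RefSeq places it on the plus strand at chr7:45121798-45121819 (GRCm38.p6), inside the Mir150 gene. The seed of this arm, bases 2 to 8, is in capitals. The other arm, miR-150-5p, is not shown because the reference used had no entry for it. The reported targets described below were not matched to the seed shown.
mmu-miR-150-3p: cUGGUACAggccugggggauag

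Expression was measured as gene counts of polyadenylated RNA, and levels are given as CPM, the counts of a gene scaled to a common library size with TMM factors. Totals ran from 76796218 to 118166689 counts per library, at which the floor of 3 counts stood at 0.0254 to 0.0391 CPM. The Th1 label was checked against markers of the cultures. Median Ifng, encoding interferon-gamma, was 1632 CPM in Th1 KO libraries and 1442 CPM in Th1 WT libraries, against 354 CPM in Th0 KO and 183 CPM in Th0 WT libraries. Median Gata3, the Th2 factor, was 2.59 CPM in Th1 KO and 1.96 CPM in Th1 WT libraries, against 37.5 CPM in Th0 KO and 19.7 CPM in Th0 WT libraries, and median Foxp3, the Treg factor, was 1.32 CPM in Th1 KO and 2.07 CPM in Th1 WT libraries. The targeted gene could not check the genotype labels: Mir150 (chr7:45121757-45121821, plus strand, GRCm38) had 0 counts in all 5 KO libraries and 1 count in total in the WT libraries, below the floor. Markers of other cells were present, and in bulk RNA fewer cells of a type and less RNA per cell cannot be told apart. Summed over 11 B cell markers, none of them at 0 in all 10 libraries, the level was 57.95 to 496.1 CPM in KO libraries and 89.73 to 762.7 CPM in WT libraries. The sum over 10 CD8 T and NK cell markers was 104.8 to 211.6 CPM in KO libraries and 118.6 to 426.5 CPM in WT libraries, that over 14 myeloid and dendritic markers 6.012 to 15.38 and 6.914 to 29.85 CPM, and that over 12 CD4 T cell markers 2816 to 3220 and 2775 to 3138 CPM. Xist was high in KO libraries 1, 2 and 3 and in WT libraries 3 and 5, and Y-linked Ddx3y was high in KO libraries 4 and 5 and WT libraries 1, 2 and 4, so both groups held both sexes. KO 3 had 4.40 CPM of Ddx3y beside its high Xist.

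Libraries Th1 WT 2 and Th1 WT 5 stood apart from the other 8 along the main axis of variation. On the first principal component of the 1000 most variable genes, which held 36.6% of the variance, they lay at 47.2 and 79.3, against -39.3 to -7.95 for the 5 KO libraries and -29.4 to 5.43 for WT libraries 1, 3 and 4. The mean correlation of WT 2 with its own group, 0.958, did not set it apart from WT 3 at 0.956 or WT 4 at 0.942. That of WT 5 was lower, at 0.925. WT 5 also had the highest mitochondrial share of counts, 4.39%, where KO libraries ran from 2.64% to 3.17%. Library WT 4 stood apart in another way: its Cd8a level was 131.5 CPM, against 1.34 to 31.7 CPM in KO libraries and 2.41 to 8.50 CPM in the other WT libraries, and its Cd4 level of 168.7 CPM was the lowest of the 10. Values without WT 2 and WT 5 stand beside the results below that they move most. This pair was chosen after the data were seen. Genes named for a large difference or a low p often had these 2 libraries at 1 end. Leaving them out then tends to shrink the difference, so these values are a description and not a test. Without both, 0 genes of most gene lists below had an unadjusted p under 0.05, and the exceptions were 1 lower gene among the BCL2 family and 1 lower gene among the B cell markers. Library KO 2 was marked apart from its own group most often, in 15 of the 26 marks described in a closing section. Some results moved the other way in a planned fit without WT 4, KO 2 and KI 3 in every culture, as given below.

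**Figure D1:**
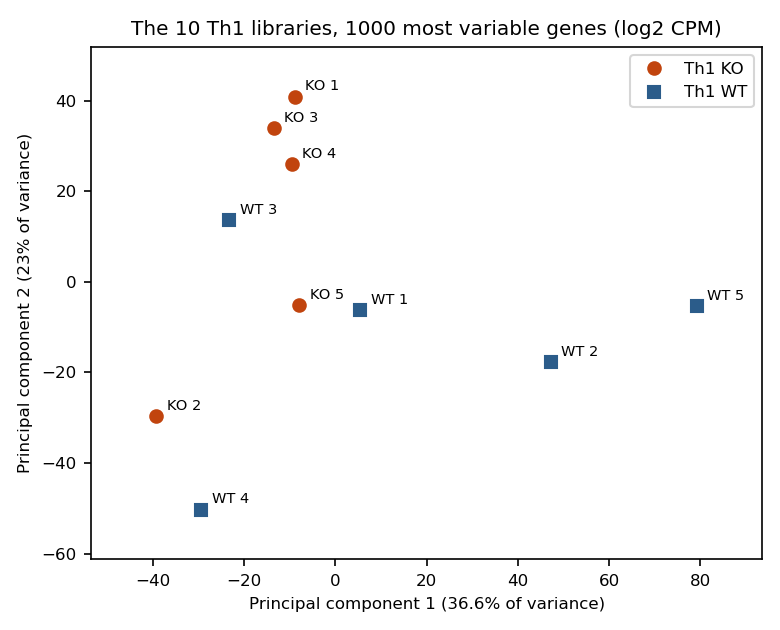
The 10 Th1 libraries on the first and second principal components of log2 CPM over 1000 genes (36.6% and 23% of the variance), KO as circles and WT as squares, each labelled by genotype and number. WT 2 and WT 5 lie at 47.2 and 79.3 on the horizontal axis, to the right of all other libraries, and the KO libraries spread mainly along the vertical axis.

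No gene differed between Th1 KO and Th1 WT cells after adjustment over the 21873 genes tested (quasi-likelihood test of edgeR, Benjamini-Hochberg adjusted), that is 0 higher and 0 lower in KO, or 0% of the genes. At an unadjusted p under 0.05 there were 852 genes higher in KO (3.90%) and 1148 lower (5.25%), together 2000 or 9.14%. DESeq2, the other tool run, called 19 genes, 4 higher and 15 lower in KO. In 226 genes (1.03%) every KO library lay above every WT library, and in 120 (0.549%) every KO library lay below, together 346 or 1.58%. WT 2 and WT 5 were the 2 highest or the 2 lowest of the 10 libraries in 6415 of the 21873 genes (29.3%), and in 1377 of the 2000 genes (68.8%) with an unadjusted p under 0.05. Among the 1148 such genes lower in KO they were so in 870 (75.8%), and among the 852 higher in KO in 507 (59.5%). A gene in which 2 WT libraries lie together at 1 end tends toward a low p, so these shares are in part raised by the selection. Other pairs of libraries were not counted. Without WT 2 and WT 5, 0 genes were called, and 385 of 22372 genes (1.72%) had an unadjusted p under 0.05. That fit has fewer WT libraries and so less power. Without WT 4 and WT 5, the share was 814 of 22361 genes (3.64%), again with 0 called. Without WT 4, KO 2 and KI 3 in every culture it rose to 3065 of 21968 genes (14%), also with 0 called. The part that whatever sets WT 2 and WT 5 apart played in the genotype difference was not tested.

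**Figure D2:**
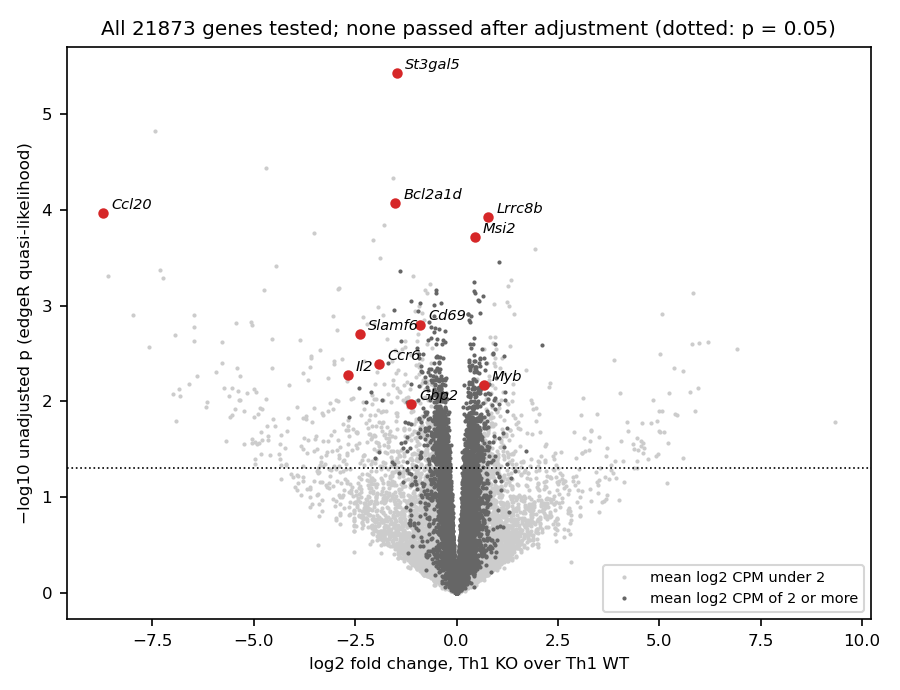
Each of the 21873 genes tested, by log2 fold change of Th1 KO over Th1 WT (horizontal) and -log10 of the unadjusted p (vertical), with genes of a mean log2 CPM of 2 or more in dark grey. The dotted line marks the 0.05 level, and the named genes in red, St3gal5 highest among them, did not pass after adjustment.

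The reported targets of miR-150 did not pass the test singly. Of the 20 tested, 12 were above 0 and 8 below, the median log2 fold change was 0.18 against 0.02 over all genes tested, and 3 higher and 2 lower had an unadjusted p under 0.05. In a fit without WT 2 and WT 5, 13 were above 0, with a median of 0.05 and 0 at an unadjusted p under 0.05. Without WT 4, KO 2 and KI 3 in every culture, 11 were above 0, with a median of 0.18. In that fit 4 higher and 2 lower had an unadjusted p under 0.05, against 14% of all genes tested. Myb (chr10:21124935-21160984, minus strand), the transcription factor best known as a target, had 130.98, 148.9, 134.8, 117.9 and 117.3 CPM in KO libraries 1 to 5, against 66.78, 53.14, 108.3, 122.9 and 56.82 CPM in WT libraries 1 to 5. Every KO library was above WT 1, 2, 3 and 5, while WT 4 lay within the KO range. The difference was 0.67 ± 0.23 on the log2 scale (SE, n = 5 each; unadjusted p = 0.00668, adjusted p = 0.506, edgeR), and it was 0.39 (unadjusted p = 0.139) without WT 2 and WT 5. Without WT 4 alone the difference was 0.86, the highest of 22 settings, and Myb was called in 0 of them.

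In the other cultures, the KO minus WT difference of Myb was 0.29 in Th0 and 1.10 in Treg, where it passed (adjusted p = 0.0286, edgeR). The Th1 difference was smaller than the Treg one by 0.43 ± 0.33 on the log2 scale, which did not pass (unadjusted p = 0.201). In Th1 KI against Th1 WT, a comparison that uses the same WT libraries, Myb differed by -0.36 (adjusted p = 0.479). The related genes Mybl1 and Mybl2 differed by 0.01 ± 0.18 and -0.26 ± 0.18.

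Zeb1, a zinc finger repressor, had 149.8, 161.7, 140.01, 157.4 and 146.2 CPM in KO libraries 1 to 5, against 131.3, 80.06, 143.1, 118.8 and 70.19 CPM in WT libraries 1 to 5. Only WT 3 reached the KO range, and WT 2 and WT 5 were lowest. Its difference was 0.47 ± 0.16 (unadjusted p = 0.00434, adjusted p = 0.506), and 0.20 (unadjusted p = 0.19) without WT 2 and WT 5. Elk1, an ETS factor, differed by 0.39 ± 0.17 (unadjusted p = 0.0284), and by 0.11 (unadjusted p = 0.524) without WT 2 and WT 5. Cbl, a ubiquitin ligase that restrains T cell receptor signals, was 329 to 350 CPM in KO libraries and 287 to 316 CPM in WT libraries, with no overlap, and differed by 0.19 ± 0.10 (unadjusted p = 0.0688). Notch3, a Notch receptor, also did not overlap, at 0.978 to 1.28 CPM in KO and 0.449 to 0.774 CPM in WT libraries (0.95 ± 0.59, unadjusted p = 0.112). Ccr6, a chemokine receptor of Th17 cells, had 0.7695, 1.065, 3.237, 2.678 and 2.562 CPM in KO libraries 1 to 5, against 4.267, 11.07, 0.5936, 10.019 and 13.29 CPM in WT libraries 1 to 5. WT 3 was below all KO libraries and the other WT libraries were above them, for a difference of -1.92 ± 0.63 (unadjusted p = 0.00404), or -1.26 (unadjusted p = 0.0747) without WT 2 and WT 5. Dkc1, a subunit of the enzyme that pseudouridylates ribosomal RNA, differed by -0.48 ± 0.18 (unadjusted p = 0.0136), and by -0.07 (unadjusted p = 0.706) without those libraries.

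The remaining targets had an unadjusted p above 0.05. Mtor, the growth kinase, differed by 0.29 ± 0.17, Socs1, an inhibitor of cytokine signals, by 0.32 ± 0.28, and Foxo1 and Tet3, a quiescence factor and a DNA demethylase, each by 0.18. Mtor differed by 0.09, Socs1 by 0.04 and Foxo1 by 0.03 without WT 2 and WT 5. Cxcr4, the receptor of CXCL12, differed by 0.82 ± 0.51 (0.45 without WT 2 and WT 5), with KO 2 at 43.05 CPM and the other KO libraries at 8.43 to 12.7 CPM. Egr2, a factor induced by the T cell receptor, differed by -0.37 ± 0.26 and was 0.07 without WT 2 and WT 5. Arrb2, a beta-arrestin, differed by 0.21 ± 0.14, Foxp1, a quiescence factor, by -0.15 ± 0.23, P2rx7, an ATP-gated channel, by -0.10 ± 0.37, and Slc2a1, a glucose carrier, by -0.03 ± 0.34. These 4 differences were -0.04, 0.02, -0.22 and -0.26, in the same order, without WT 2 and WT 5. Gab1 and Kcnip1 were at or near 0 in every library, at 0.182 CPM or less.

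Genes next to Mir150 served as a local check. Rpl13a and Flt3l, encoding a ribosomal protein and the ligand of the receptor FLT3, differed by 0.28 ± 0.17 and 0.31 ± 0.24. Gm45552, annotated as antisense RNA 96 bp from Mir150, averaged 0.651 ± 0.237 CPM in KO and 0.574 ± 0.0908 CPM in WT libraries (SD, n = 5 each). The overlapping annotation Gm45713 held 422 counts in KO 4 and 0 in the other 9 libraries, at a place that also belongs to Flt3l and Rpl13a, so this count is uncertain.

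No gene of the Th1 programme passed the test. Of 28 genes tested, 7 were above 0 and 21 below, with a median log2 fold change of -0.30, and 0 higher and 2 lower at an unadjusted p under 0.05. With the Cd8a level as a covariate 13 of 28 were above 0 (median -0.06). The same number was above 0 without WT 4, KO 2 and KI 3 in every culture (median -0.14), and without WT 4 and WT 5 (median -0.05). Tbx21, encoding T-bet, had 82.22, 76.21, 79.11, 71.81 and 87.36 CPM in KO libraries 1 to 5, against 90.44, 111.9, 91.83, 120.5 and 68.14 CPM in WT libraries 1 to 5. All KO libraries lay below 4 of the WT libraries and above WT 5, and the difference of -0.28 ± 0.76 did not pass (unadjusted p = 0.711). Ifng had 2351, 1489, 1667, 1235 and 1632 CPM in KO libraries 1 to 5, against 1442, 1323, 2115, 2985 and 1072 CPM in WT libraries 1 to 5. The 2 groups overlapped across nearly the whole range, and the difference was -0.09 ± 1.32 (unadjusted p = 0.944). The SEs of Tbx21 and Ifng come from the model over all 9 groups, so they do not give the spread of the 10 libraries listed.

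Effector genes of the programme varied most between libraries. Prf1, encoding perforin, had 20.44, 83.76, 26.84, 22.19 and 28.039 CPM in KO libraries 1 to 5, against 19.94, 6.428, 40.28, 313.98 and 8.766 CPM in WT libraries 1 to 5. WT 4, the library with the high Cd8a, set the WT mean, and the difference of -1.10 ± 1.10 (unadjusted p = 0.321) became 0.93 without it. The chemokine genes Ccl3 and Xcl1 differed by -0.86 ± 0.75 and -1.01 ± 0.79, and by -0.35 and 0.04 without WT 2 and WT 5, and neither passed. Irf1, an interferon-induced factor, had 96.02 to 137.1 CPM in KO libraries and 122.5 to 215.3 CPM in WT libraries (-0.58 ± 0.26, unadjusted p = 0.0315), with WT 2 and WT 5 at 215 CPM each, and -0.23 (unadjusted p = 0.428) without them.

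**Figure D3:**
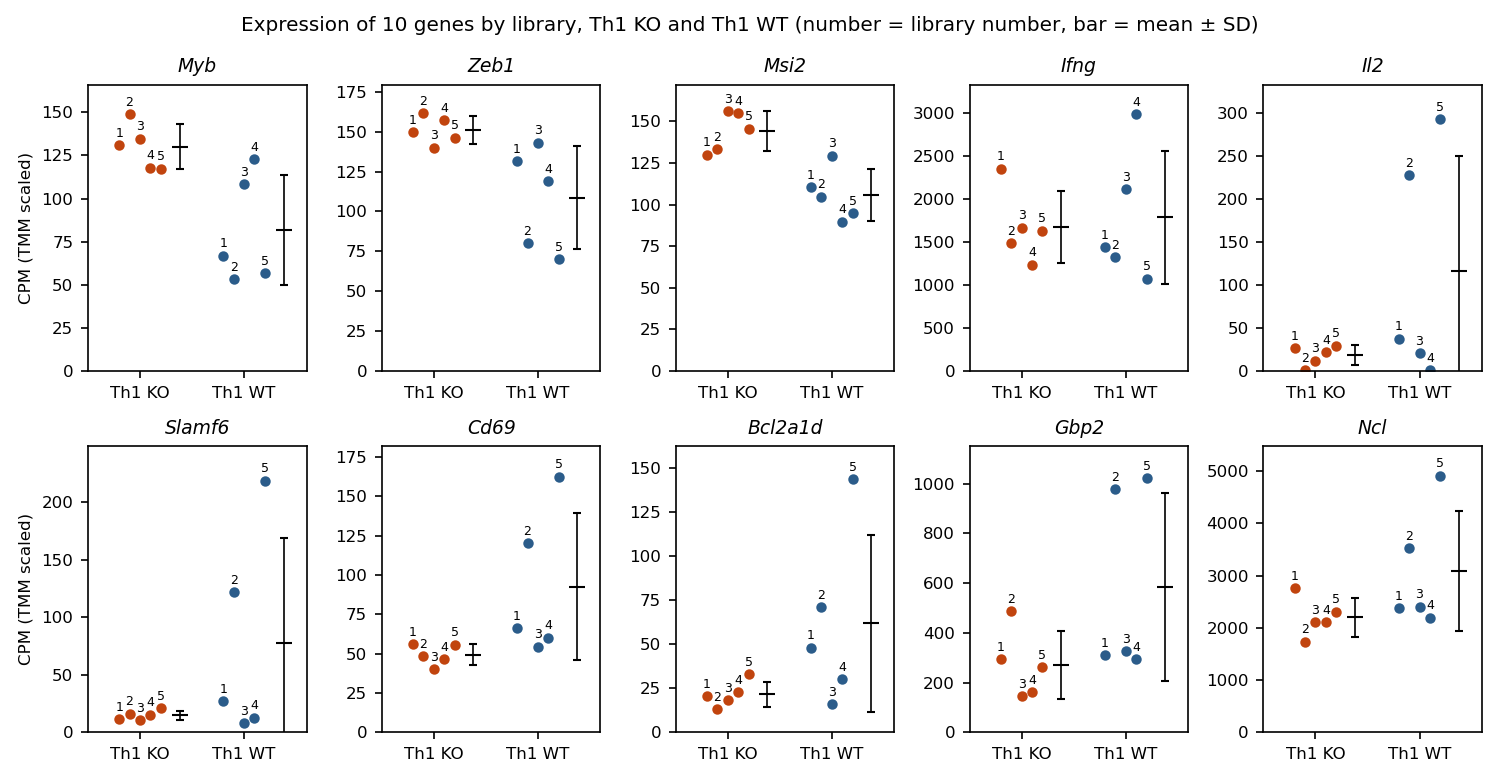
CPM of 10 genes in each library, Th1 KO left and Th1 WT right in every panel, with the library number above each point and the mean ± SD beside it (SD bars are cut at 0). In Il2, Slamf6, Cd69, Bcl2a1d, Gbp2 and Ncl the WT points of libraries 2 and 5 lie above the other 8 libraries, and in Msi2 all KO points lie above all WT points.

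Genes whose groups did not overlap, taken in order of unadjusted p among those whose mean log2 CPM was 2 or more, showed small differences. Msi2 (chr11:88339382-88718513, minus strand), which encodes an RNA-binding translational regulator, had 130.02, 133.3, 156.1, 155.02 and 145.6 CPM in KO libraries 1 to 5, against 110.4, 104.8, 129.4, 89.7 and 94.77 CPM in WT libraries 1 to 5. KO libraries were all higher, by 0.44 ± 0.11 (unadjusted p = 0.000194, adjusted p = 0.413), and the difference was 0.39 (unadjusted p = 0.0039) without WT 2 and WT 5. It was 0.12 in Th0 and -0.18 in Treg, and the Th1 difference exceeded that in Treg by 0.62 ± 0.15 (unadjusted p = 0.000227, adjusted p = 0.285). That difference was called by DESeq2 (adjusted p = 0.0358), and by edgeR when WT 4, KO 2 and KI 3 were left out in every culture (adjusted p = 0.0403).

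The next genes above WT in KO were Hspa4l, a heat-shock protein (0.43 ± 0.12), Spata13, an exchange factor for small GTPases (0.55 ± 0.15), Slc30a7, a zinc carrier of the Golgi (0.29 ± 0.08), and Golga7, a Golgi protein that aids protein palmitoylation (0.28 ± 0.08). Brox, Pde4d, Tfcp2, Srgap2 and Acbd3 followed with 0.31 to 0.43. Pde4d is a phosphodiesterase that degrades cyclic AMP, and Tfcp2 a transcription factor whose Th1 difference exceeded the Treg one by 0.89 ± 0.19 (unadjusted p = 4.44e-05, adjusted p = 0.184, edgeR). That difference was called by DESeq2 (adjusted p = 0.00492) and by edgeR without Treg WT 3 (adjusted p = 0.0217). Without WT 2 and WT 5 the 10 differences ran from 0.15 to 0.40.

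In the other direction, Apex2, a DNA repair nuclease, had 17.32, 16.78, 19.11, 17.41 and 16.952 CPM in KO libraries 1 to 5, against 20.72, 25.14, 21.68, 22.27 and 23.62 CPM in WT libraries 1 to 5. KO libraries were all lower, by -0.37 ± 0.10 on the log2 scale (unadjusted p = 0.000941, adjusted p = 0.459), and by -0.30 (unadjusted p = 0.0162) without WT 2 and WT 5. Vamp3, a membrane fusion protein of recycling endosomes, differed by -0.28 ± 0.08 and kept -0.25 (unadjusted p = 0.00983) without those libraries. Lyrm4, of the mitochondrial machinery that builds iron-sulfur clusters, differed by -0.48 ± 0.15. Sptlc1, of the enzyme that starts sphingolipid synthesis, differed by -0.37 ± 0.13, and Dffa, an inhibitor of the apoptotic nuclease, by -0.25 ± 0.08. Dhrs4, a dehydrogenase, was 4.53 to 6.92 CPM in KO and 7.08 to 14.1 CPM in WT libraries (-0.82 ± 0.26). Trir, Sap30bp and the pseudogene Tubb4b-ps1 differed by -0.44, -0.29 and -0.43, and reads of Tubb4b-ps1 may come from its near-identical parent gene. Without WT 2 and WT 5 the differences were -0.27 for Lyrm4, -0.14 for Sptlc1, -0.42 for Dhrs4, -0.27 for Trir and -0.19 for Sap30bp, each with an unadjusted p above 0.05.

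St3gal5 came closest to the threshold of all genes, and it was chosen for description after its values were seen. It encodes the sialyltransferase that makes ganglioside GM3 (chr6:72097592-72154571, plus strand). It had 0.9651, 0.98087, 0.541, 0.5858 and 0.9473 CPM in KO libraries 1 to 5, against 1.422, 2.536, 1.065, 2.64 and 3.541 CPM in WT libraries 1 to 5. Every KO library was below every WT library. The difference was -1.48 ± 0.27 (unadjusted p = 3.72e-06, adjusted p = 0.0815), with -0.72 in Th0 and -0.18 in Treg, and it was -1.09 (unadjusted p = 0.000592) without WT 2 and WT 5. It was called by DESeq2 (adjusted p = 0.000258), by edgeR with a stricter filter on low counts (adjusted p = 0.0483), and by edgeR without WT 1 (adjusted p = 0.0322) or without WT 3 (adjusted p = 0.00741).

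The BCL2A1 genes, encoding survival proteins that activated T cells make, were next among better expressed genes. Bcl2a1d had 20.48, 13.21, 18.26, 22.967 and 32.87 CPM in KO libraries 1 to 5, against 47.979, 70.957, 16.11, 30.23 and 143.8 CPM in WT libraries 1 to 5. KO was lower by -1.52 ± 0.35 on the log2 scale (unadjusted p = 8.41e-05, adjusted p = 0.368), with WT 3 and WT 4 inside the KO range, and by -0.54 (unadjusted p = 0.0846) without WT 2 and WT 5. Bcl2a1b differed by -1.13 ± 0.31, and Bcl2a1a, named after its values were seen, by -1.57 ± 0.34, against -0.40 and -0.71 without WT 2 and WT 5. The 3 genes are near-identical copies, so their counts are uncertain and are not separate evidence. The Th1 minus Th0 difference of the KO effect on Bcl2a1d was -1.31 (unadjusted p = 0.00949), which did not pass. Without WT 3, Bcl2a1d and Bcl2a1a were called (adjusted p = 0.0164 each, edgeR).

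Other genes called by DESeq2 were mostly near the floor, and those of this paragraph were named after their values were seen. Clec5a, a myeloid lectin, had 0 counts in all 5 KO libraries and 0.140 to 0.438 CPM in WT libraries (unadjusted p = 1.49e-05, adjusted p = 0.163, edgeR). Ccl20, the ligand of CCR6, had 0 counts in all 5 KO libraries and was likewise 0 in WT 1 and WT 4, with 0.0349 CPM in WT 3, 0.663 CPM in WT 2 and 1.89 CPM in WT 5. Calhm6, Plpp1 and Cd36 were also highest in WT 5. Lrrc8b, of a volume-regulated anion channel, was the better expressed of those higher in KO. It had 64.7 to 104.8 CPM in KO and 29.83 to 71.996 CPM in WT libraries (0.77 ± 0.18, unadjusted p = 0.00012, adjusted p = 0.374), and 0.48 (unadjusted p = 0.0107) without WT 2 and WT 5. Siglecf and Clec4e, which mark myeloid cells, were 0.0338 CPM or less and 0.189 to 0.583 CPM in KO libraries, against 0.0779 to 0.865 CPM and 0.271 to 2.05 CPM in WT libraries. The myeloid marker list had 5 of 13 tested genes above 0 and 8 below (median -0.16), and its part in these genes was not tested.

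No cytokine or receptor gene of activated T cells in the lists passed the test. Il2, the T cell growth factor, had 26.15, 0.8371, 11.89, 21.66 and 29.55 CPM in KO libraries 1 to 5, against 37.37, 228.2, 20.49, 1.0246 and 293.2 CPM in WT libraries 1 to 5. Only WT 2 and WT 5 lay far above the KO range, and WT 3 and WT 4 lay within it. The difference of -2.69 ± 0.91 (unadjusted p = 0.00535, adjusted p = 0.506) was -0.12 (unadjusted p = 0.89) without WT 2 and WT 5.

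Slamf6, a costimulatory receptor, had 11.26, 16.32, 10.6, 15.34 and 20.84 CPM in KO libraries 1 to 5, against 27.09, 121.8, 8.093, 12.87 and 218.8 CPM in WT libraries 1 to 5. Its difference of -2.38 ± 0.72 (unadjusted p = 0.00197) was -0.11 without WT 2 and WT 5. Tnfsf11, encoding RANKL, differed by -1.82 ± 0.67 (unadjusted p = 0.00976), and by 0.39, in the opposite direction, without WT 2 and WT 5. Cd69, an early activation marker, had 40.3 to 56.2 CPM in KO libraries and 54.6 to 162 CPM in WT libraries (-0.91 ± 0.27, unadjusted p = 0.00158), and -0.29 without WT 2 and WT 5. Cd44, the adhesion receptor of activated T cells, differed by -0.61 ± 0.31, which was -0.13 without WT 2 and WT 5, and the exhaustion factor Tox by -1.32 ± 0.59, which was 0.26 without them. Over the list of activation and inhibitory receptors, 0 of 20 were higher and 4 lower at an unadjusted p under 0.05 (median -0.11). Without WT 2 and WT 5 it was 0 of 20 in either direction (median 0.03). Leaving out WT 4, KO 2 and KI 3 in every culture, 0 were higher and 7 lower (median -0.25). In that fit the share of all genes tested was 14% in either direction. The cytokine list had 1 higher and 3 lower of 15 (median -0.11), and 1 higher and 4 lower (median -0.32) without WT 4, KO 2 and KI 3. Its higher member Tgfb1, the immunosuppressive cytokine, differed by 0.52 ± 0.22 (unadjusted p = 0.0247) and by 0.21 (unadjusted p = 0.361) without WT 2 and WT 5, and was lowest in WT 5.

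No gene of ribosome biogenesis or of the cell cycle passed the test. All 16 ribosome biogenesis genes tested were below 0 (median log2 fold change -0.29), 5 of them at an unadjusted p under 0.05, and 0 passed after adjustment. Ncl (nucleolin, a nucleolar chaperone) had 2760, 1739, 2107, 2106 and 2313 CPM in KO libraries 1 to 5, against 2374, 3525, 2409, 2198 and 4918 CPM in WT libraries 1 to 5. WT 1, WT 3 and WT 4 were within the KO range, and the difference of -0.48 ± 0.18 (unadjusted p = 0.0117) was -0.08 without WT 2 and WT 5. Npm1, nucleophosmin, behaved likewise at -0.43 ± 0.18 and -0.04. Without those libraries 15 of the 16 genes were still below 0, with a median of -0.08 and 0 at an unadjusted p under 0.05.

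Of 24 genes of the cell cycle and DNA replication, 20 were below 0 (median -0.14), with 1 higher and 5 lower at an unadjusted p under 0.05. Mcm5, of the replicative helicase, had 171 to 239 CPM in KO and 227 to 425 CPM in WT libraries (-0.54 ± 0.19, unadjusted p = 0.00807). Ccne2, cyclin E2, differed by -0.47 ± 0.21, and Cdkn1b, the cell cycle inhibitor p27, by 0.55 ± 0.21 (unadjusted p = 0.0145). Leaving out WT 2 and WT 5, Mcm5 differed by -0.34 (unadjusted p = 0.119), Ccne2 by -0.21 and Cdkn1b by 0.34 (unadjusted p = 0.168). Without WT 2 and WT 5 again 20 of 24 were below 0, at a median of -0.12, and 0 had an unadjusted p under 0.05. Mitochondrially encoded transcripts were below 0 in 12 of 13 (median -0.22), led by mt-Cytb (-0.54 ± 0.26), and above 0 in 11 of 13 (median 0.04) without those libraries. The list of nuclear respiratory chain genes had 12 of 19 below 0 (median -0.10) and glycolysis and hypoxia genes 14 of 23 above (median 0.07), or 7 of 23 above (median -0.14) without them, where the count includes 2 table entries for 1 gene name.

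Genes of naive and quiescent T cells were mostly on the other side. Of 20, 16 were above 0 (median 0.26), with 3 higher and 1 lower at an unadjusted p under 0.05, and without WT 2 and WT 5 15 were above 0 (median 0.15, 0 at an unadjusted p under 0.05). S1pr1, the receptor that lets T cells leave lymphoid organs, had 111.8, 138.7, 113.6, 115.3 and 106.8 CPM in KO libraries 1 to 5, against 98.35, 43.4, 106.04, 88.53 and 31.92 CPM in WT libraries 1 to 5. All KO libraries were above all WT libraries, but the difference of 0.67 ± 0.42 did not pass (unadjusted p = 0.115). Il7r, the receptor subunit for interleukin-7, differed by 0.67 ± 0.45 and Slfn2, a schlafen that maintains quiescence, by -0.71 ± 0.28. Without WT 2 and WT 5 the differences were 0.26 for S1pr1, 0.26 for Il7r and -0.04 for Slfn2 (unadjusted p = 0.571, 0.61 and 0.887).

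In the Treg programme 13 of 19 were above 0 (median 0.25), and 10 of 19 without WT 2 and WT 5 (median 0.05). Ikzf2, encoding Helios, had 32.4, 77.32, 61.77, 36.59 and 43.6 CPM in KO libraries 1 to 5, against 15.27, 7.833, 43.25, 24.983 and 29.988 CPM in WT libraries 1 to 5. WT 3 alone reached the KO range (1.05 ± 0.39, unadjusted p = 0.0105), and the difference was 0.85 (unadjusted p = 0.0584) without WT 2 and WT 5. Nrp1, neuropilin-1, differed by -1.18 ± 0.60, and by -0.12 without those libraries. Ldlrad4, an inhibitor of TGF-beta signalling, did not overlap between groups, at 6.59 to 11.1 CPM in KO and 1.22 to 6.12 CPM in WT libraries (1.20 ± 0.44, unadjusted p = 0.00971), and differed by 0.79 (unadjusted p = 0.116) without WT 2 and WT 5. The Th2 and Th17 lists had medians of 0.09 and 0.02, and of 0.08 and -0.15 without WT 2 and WT 5. B cell markers were below 0 in 11 of 11 (median -1.04, 2 lower at an unadjusted p under 0.05), led by Ms4a1 (-1.91 ± 0.87), and Pax5, the B cell factor, differed by -1.15 ± 0.87. They stayed below 0 in 11 of 11 without WT 2 and WT 5, and the part of B cell RNA in other differences was not tested.

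The other lists had no called gene. Genes of STAT, SOCS and IRF signalling had 17 of 24 above 0 (median 0.14, 1 higher and 3 lower at an unadjusted p under 0.05), adhesion and migration 13 of 20 (median 0.28, 0 and 1), and cholesterol and lipid synthesis 16 of 22 (median 0.08, 0 and 0). The EGR, NR4A and AP-1 factors were split 13 to 13 (median 0.00, 0 and 3), the BCL2 family 9 to 9 (median 0.00, 2 and 3), and MYC and nutrient uptake had 5 of 13 above 0 (median -0.03, 0 and 0). Genes of microRNA processing and Argonaute proteins had 6 of 13 above 0 (median -0.05, 1 and 1), TGF-beta receptors and SMADs 8 of 13 (median 0.01, 1 and 0), and stress genes 5 of 13 (median -0.02, 0 and 1). CD4 T cell markers were split 6 to 6 (median 0.01), CD8 T and NK cell markers had 4 of 10 above 0 (median -0.18), and erythroid markers 4 of 7 (median 0.38), against 11353 of 21873 over all genes tested. The medians of the adhesion, CD8 T and NK cell, and erythroid lists were 0.09, -0.61 and -0.08 without WT 2 and WT 5.

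**Figure D4:**
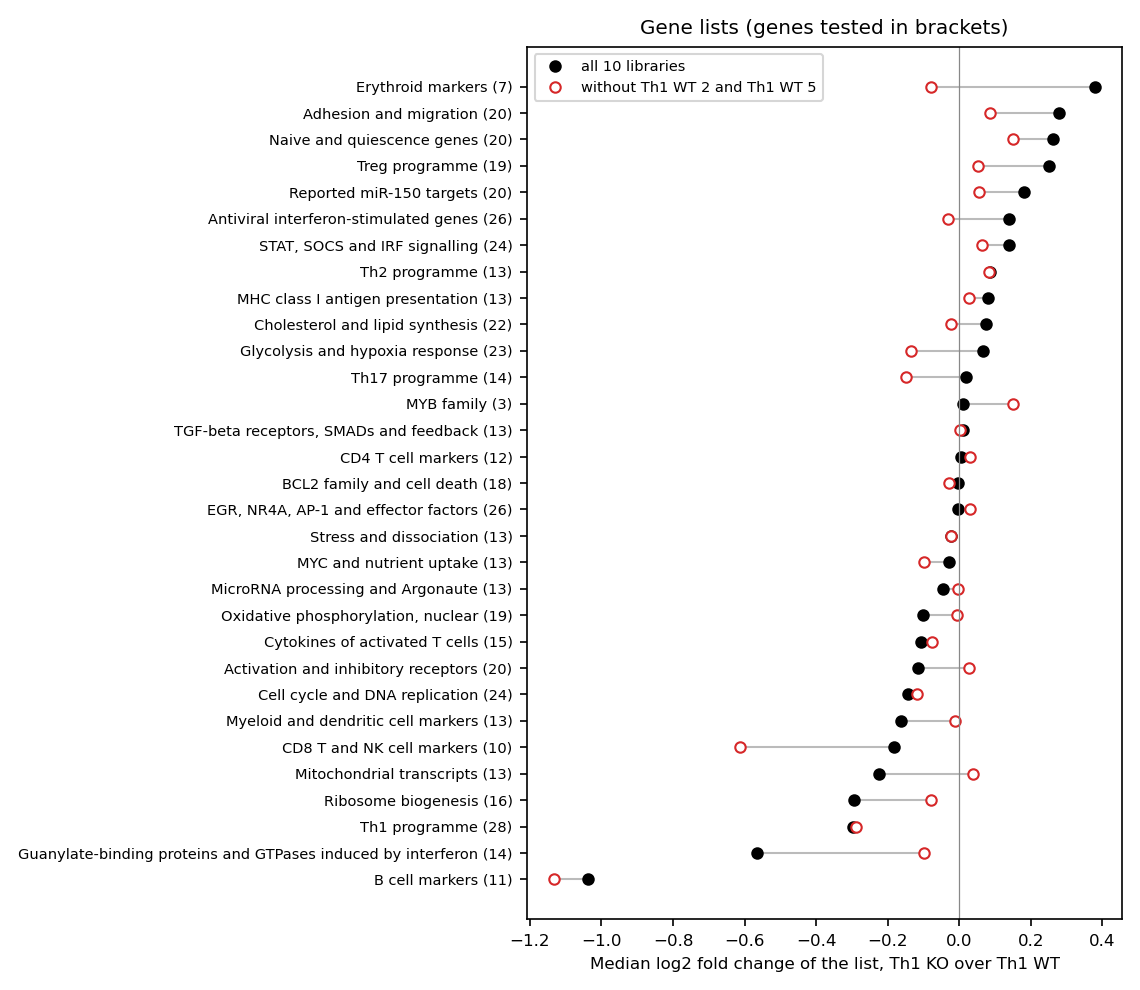
Median log2 fold change of Th1 KO over Th1 WT for each gene list, with the number of genes tested in brackets, in the fit with all 10 libraries (black) and without Th1 WT 2 and Th1 WT 5 (open red). The median of the interferon-induced GTPases lay at -0.57 with all libraries and at -0.10 without them, that of ribosome biogenesis at -0.29 and -0.08, and that of the Th1 programme at -0.30 and -0.29. Not drawn is the Th1 programme median of -0.06 with the Cd8a level as a covariate.

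Guanylate-binding proteins and related GTPases, which interferon-gamma induces and which attack the vacuoles of intracellular microbes, were the list with the lowest median after the B cell markers. Of 14 tested, 12 were below 0 (median log2 fold change -0.57), and 0 higher and 6 lower had an unadjusted p under 0.05. Over all genes tested the shares were 3.90% higher and 5.25% lower. These are related genes in a list chosen with earlier results of these data known, so they are not separate evidence. Gbp2 (chr3:142620602-142638008, plus strand) had 295.5, 488.1, 144.5, 161.1 and 263.1 CPM in KO libraries 1 to 5, against 310.1, 977.5, 326.1, 294.5 and 1022 CPM in WT libraries 1 to 5. WT 2 and WT 5 were again highest, and KO 2 exceeded the other 3 WT libraries. The difference of -1.11 ± 0.42 (unadjusted p = 0.0106, adjusted p = 0.507) was -0.20 (unadjusted p = 0.646) without WT 2 and WT 5. Tgtp2, a T cell-specific GTPase, had 49.8 to 59.7 CPM in KO and 53.2 to 208 CPM in WT libraries (-0.97 ± 0.30, unadjusted p = 0.00279), and -0.16 without those libraries. Iigp1 differed by -1.22 ± 0.52 and by -0.17 without them. Over the list, 0 of 14 had an unadjusted p under 0.05 without WT 2 and WT 5 (median -0.10). Leaving out WT 4, KO 2 and KI 3 in every culture instead, 14 of 14 were below 0 (median -0.72). In that fit 9 of the 14 were lower at an unadjusted p under 0.05, against 14% of all genes tested in either direction. The antiviral interferon-stimulated genes had 18 of 26 above 0 (median 0.14), or 12 of 26 without WT 2 and WT 5 (median -0.03), with Cxcl10, a chemokine, at -0.90 ± 0.62, Irf7 at 0.78 ± 0.63 and Oas1a at 0.75 ± 0.67, the last of which were 0.38 and 0.19 without those libraries. Genes of MHC class I presentation had a median of 0.08.

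The promoters of 2 of these genes are shown because 12 of the 14 genes of the list lay below 0. They span 250 bases before to 50 after the start in RefSeq (GRCm38.p6), Gbp2 at chr3:142620413-142620712 on the plus strand and Tgtp2 at chr11:49064163-49064462 on the minus strand. Capitals mark matches to the gamma-activated site TTCNNNGAA (GAS), a motif of interferon-gamma responsive promoters, and to the interferon-stimulated response element GAAA, any 2 bases, GAAA (ISRE), which IRF factors bind, read on both strands. A GAS match ends in letters with which an ISRE match can begin, so the motifs may overlap, though in Tgtp2 they do not. Gbp2 has 1 ISRE match on the reverse strand, and Tgtp2 has 1 of each.
Gbp2 promoter: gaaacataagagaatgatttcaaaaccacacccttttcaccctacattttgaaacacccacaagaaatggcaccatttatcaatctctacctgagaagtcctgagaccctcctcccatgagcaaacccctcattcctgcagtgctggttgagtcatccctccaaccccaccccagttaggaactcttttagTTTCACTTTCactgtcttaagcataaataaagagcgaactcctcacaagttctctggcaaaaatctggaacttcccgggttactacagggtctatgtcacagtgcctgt
Tgtp2 promoter: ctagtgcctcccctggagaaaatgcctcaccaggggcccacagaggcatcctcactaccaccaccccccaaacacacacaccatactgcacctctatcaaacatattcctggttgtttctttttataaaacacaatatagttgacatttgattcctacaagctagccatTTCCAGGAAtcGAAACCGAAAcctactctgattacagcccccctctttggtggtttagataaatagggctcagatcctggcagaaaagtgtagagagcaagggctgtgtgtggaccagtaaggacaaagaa
Of 10 promoters that RefSeq gives for 9 genes of the list, 6 held a GAS and 9 an ISRE, against 8.3% and 3.44% of 32851 mouse promoters of the same length. Among 16200 promoters of tested genes the shares were 7.23% and 3.23%. The list was chosen as genes that interferon induces, so its motif counts do not bear on KO against WT. A match describes the letters only.

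Between cultures, the KO effect on this list ran in different directions, though edgeR with all libraries called the difference for none of the genes (0 of 14). The median KO minus WT difference of the 14 genes was -0.57 in Th1, -0.54 in Th0 and 0.91 in Treg, where 3 were called higher in KO and 37 of all genes tested were called (0.169%). Without Th1 WT 2 and Th1 WT 5 the Th1 median was -0.10, with 6 of 14 above 0. The Th1 minus Treg difference was not fitted without those 2 libraries, so its dependence on them was not tested. In Treg, 13 of the 14 had an unadjusted p under 0.05, against 10.1% of all genes tested. The list was chosen with earlier results of these data known, and interferon-gamma induces its genes, so its members are not separate evidence. The test of the difference itself, Th1 minus Treg, called 0 of 21873 genes (1402 or 6.41% at an unadjusted p under 0.05, edgeR, and 41 called by DESeq2), and 13 of the 14 GTPases had an unadjusted p under 0.05. Gbp2 differed by -2.85 ± 0.59 between the cultures (unadjusted p = 2.26e-05, adjusted p = 0.165), Tgtp2 by -1.64 ± 0.43 and Iigp1 by -2.38 ± 0.73. Gbp7, with -1.89 ± 0.45 (adjusted p = 0.266), is named after its values were seen. DESeq2 called the difference for Gbp2 (adjusted p = 0.00192), Gbp7 and Gbp3 (adjusted p = 0.0254 each), the last also named after its values were seen. In edgeR, Gbp2 was called without Treg WT 3 (adjusted p = 0.0272), and Gbp2 and Gbp7 with WT 4, KO 2 and KI 3 left out in every culture (adjusted p = 0.0287 each). These settings keep Th1 WT 2 and Th1 WT 5. Irf1 differed between the cultures by -1.41 ± 0.37 (adjusted p = 0.285, and 0.0273 without Treg WT 3). With all genes, Th1 minus Th0 gave 0 calls (384 or 1.76% at an unadjusted p under 0.05, edgeR, and 3 called by DESeq2), and 0 of the 14 GTPases had an unadjusted p under 0.05. Same-numbered libraries of a genotype deviated together across cultures, so the differences in the 3 cultures are not independent. The values above come from fits that did not pair these libraries. With genotype and number as a block, the Th1 minus Treg difference was -2.58 ± 0.61 for Gbp2 (adjusted p = 0.168, edgeR). It was -1.92 ± 0.42 for Gbp7 (adjusted p = 0.137, edgeR) and -1.37 ± 0.40 for Tgtp2 (adjusted p = 0.275, edgeR).

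**Figure D5:**
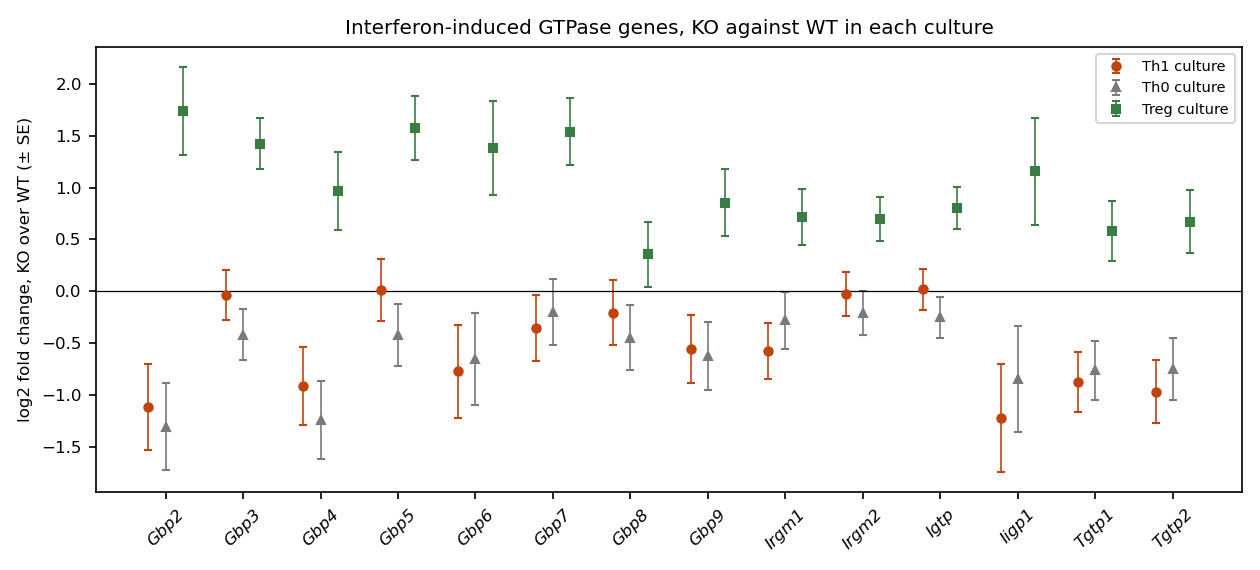
KO minus WT log2 fold change ± SE for the 14 interferon-induced GTPase genes in Th1 (circles), Th0 (triangles) and Treg (squares) culture. Gbp2 lies at -1.11 in Th1, -1.30 in Th0 and 1.74 in Treg.

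The 3 cultures differed in how many genes separated KO from WT. At an adjusted p under 0.05 there were 0 genes in Th1, 0 in Th0 (1048 or 4.79% at an unadjusted p under 0.05) and 37 in Treg, and these counts do not show that the effects differ. Outside the GTPases, the smallest p for a Th1 minus Treg difference was that of Nol4l, named after its values were seen, at 2.05 ± 0.38 (unadjusted p = 3.60e-06, adjusted p = 0.0788), where KO minus WT was 0.27 in Th1 and -1.78 in Treg. That difference was called by DESeq2 (adjusted p = 0.000225), and by edgeR under a stricter filter on low counts (adjusted p = 0.0379), without Treg WT 3 (adjusted p = 0.00201), without WT 4, KO 2 and KI 3 (adjusted p = 0.0287) and with the Xist level as a covariate (adjusted p = 0.0465). Ankrd37, a hypoxia-induced gene also named after its values were seen, followed at -1.68 ± 0.35 (adjusted p = 0.165), with -0.23 in Th1 and 1.44 in Treg, and was called by DESeq2 (adjusted p = 0.00438) and by edgeR without Treg WT 3 (adjusted p = 0.0263) or without Treg KO 4 (adjusted p = 0.0361). For the KI allele, Th1 KI against Th1 WT gave 6 called genes (0.0274%). It shares the 5 WT libraries with the KO comparison, and side by side the KO and KI values against WT were -2.69 and -1.30 for Il2, -2.38 and -1.18 for Slamf6, -1.11 and -0.82 for Gbp2, -1.52 and -0.18 for Bcl2a1d, 0.44 and 0.25 for Msi2 and 0.67 and -0.36 for Myb.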

How the data were processed

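Polyadenylated RNA of mouse CD4 T cell cultures was sequenced as stranded, paired-end libraries (150 bp), as the labels' protocols state. The deposited table holds the authors' whole-number counts per gene, in 88 columns, 2 lanes for each of 44 libraries. Not given in the sources used here are the counting tool, annotation and strand setting. The build GRCh38, a human one, stands in the submitters' processing notes, while the gene identifiers are those of mouse. In 134 genes every column holds exactly 1, which was not read as a measurement. A second, normalised table was not used. Both lanes of each library were added up. In the 10 Th1 KO and WT libraries 1 lane held 3.59 to 3.9 times the counts of the other. No 2 libraries of a Th1 group were copies: pairs differed by a median chi-square of at least 4.36 per gene.

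Counts were fitted with edgeR 4.0.16 in R 4.3.3 (TMM, default filter by group, a model of 9 group means over 44 libraries, quasi-likelihood test, Benjamini-Hochberg adjustment, called at 0.05). Effects are KO minus WT with their SE on the log2 scale, and levels of CPM are means ± SD or single values. DESeq2 1.42.0 was an alternative, with other scaling, filters, covariates, a replicate block and each library left out in turn. The procedure was tested on simulated data. Depth was 76796218 counts or more in those 10 libraries, and the floor of 3 counts covers counting error only. Coordinates are those of GENCODE release 21 on GRCm38, and sequences are from RefSeq.

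The members and the 32 gene lists were chosen with earlier results of these data known. Genes were named by rule: Mir150 and its neighbours, Myb, Tbx21, Ifng, Cd8a, Foxp3, all reported targets, the 10 non-overlapping genes of smallest p each way whose mean log2 CPM was 2 or more, and, no gene being called, up to 3 of each list by size of effect at that level or above. Others are said to be chosen after their values were seen. Same-numbered libraries of a genotype correlated in their deviations from the group means across cultures, at 0.437 to 0.743 for Th1 with Th0 and 0.162 to 0.464 for Th1 with Treg. For Th1 with Treg, 3 of 5 WT and 5 of 5 KO libraries matched their own number best. The main fit did not pair them, and 1 further fit did, with genotype and number as a block. What a number stands for is not in the labels. A few results that the rule names are not reported here.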

Additional observations from a re-analysis of the deposited data

Results flagged for a closer look

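In each Th1 group of 5 libraries, a library was marked where its gap to the nearest other exceeded 0.71 of the group's range. Over 266 groups examined (a gene, the total counts or the mitochondrial share, in KO or in WT), 26 were marked. Chance gives about 1 in 20 for independent, normally distributed values, which these values need not be. Library Th1 KO 2 stood apart, in CPM, for Cd3g 179.7, Cxcr4 43.05, Egln3 507.2, Erap1 176.6, Foxo1 135.8, Ier3 38.74, Irf1 137.1, Nrp1 4.803, Pfkm 46.41, Prf1 83.76, S1pr1 138.7, Slc2a3 258.3, Tgif1 44.86, Tnfsf11 3.805 and Tox 1.7. Library Th1 KO 1 stood apart, in CPM, for Ddit3 17.7. Library Th1 KO 3 stood apart, in CPM, for Apex2 19.11. Library Th1 WT 4 stood apart, in CPM, for Cd8a 131.5, Cd8b1 55.001, Prf1 314 and Slc2a3 129.8. Library Th1 WT 5 stood apart, in CPM, for Cd36 9.893, Mybl1 25.84, Pdia3 800.4 and Zap70 50.49. Library Th1 WT 2 stood apart, in CPM, for Pmepa1 13.18.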

How the results depend on the processing

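The count of genes called between Th1 KO and Th1 WT was 0 in edgeR, 19 in DESeq2 (4 higher, 15 lower), 1 with a stricter filter on low counts, and 0 to 3 with 1 library left out. It was 1 without WT 1 and 3 without WT 3. For the KO effect in Th1 minus Th0, DESeq2 called 3 genes. For Th1 minus Treg it called 41, the stricter filter 1 (Nol4l), the Xist covariate 1 (Nol4l), and leaving out WT 4, KO 2 and KI 3 in every culture 6, while leaving out 1 library gave 0 to 22 (22 without Treg WT 3, 1 without Treg KO 4). The cause of these changes was not tested. Of the named genes, 29 changed sign in at least 1 setting. Their values on the log2 scale where they did, none of them called in edgeR with all libraries, were as follows. With DESeq2 size factors in edgeR they were Mybl1 -0.001419. With DESeq2 they were Mybl1 -0.001142. With no filter on low counts they were Mybl1 -0.00391. With Cd8a level as a covariate they were Prf1 0.2955, Ifng 0.5648 and Slc2a1 0.03486. Leaving out WT 4, KO 2 and KI 3 in every culture, they were Prf1 0.3644, Ifng 0.2064, Egln3 -0.09275, Il21 -0.1105, Cd8b1 0.5766, Cd8a 1.244, Slc2a3 -0.1723, Xist -0.3158 and Ddx3y 0.1253. With only the libraries of the compared groups they were Mybl1 -0.009817. With Xist level as a covariate they were Il21 -0.1514, Xist -0.02658 and Ddx3y 4.176. Without Th1 WT 4 and Th1 WT 5 they were Prf1 0.6946, Ifng 0.03411, Cd8b1 0.4169, Cd8a 1.27 and Cd3g 0.06107. Without Th1 WT 2 and Th1 WT 5 they were Xcl1 0.03947, Egr2 0.06872, Ddit3 -0.03293, Kcnip1 0.3978, Arrb2 -0.03871, Erap1 0.1246, Tnfsf11 0.3886, Jak2 0.04718, Pdia3 0.01958, Il21 -0.1042, Tox 0.2642, Il23r -0.1127, Foxp1 0.02129, Crtam 0.2762, Cd3g 0.034 and mt-Nd4l 0.03813. With 1 library left out, the ranges were Ahr -0.1483 to 0.03485, Cd3g -0.3531 to 0.004417, Cd8a -1.811 to 1.485, Cd8b1 -1.49 to 0.583, Ddx3y -1.024 to 0.08161, Egln3 -0.2655 to 0.5246, Foxp1 -0.2517 to 0.01662, Foxp3 -0.2558 to 0.432, Ifng -0.2421 to 0.1647, Il21 -0.2143 to 0.4214, Mybl1 -0.06515 to 0.1712, P2rx7 -0.5008 to 0.05732, Prf1 -1.659 to 0.9324, Slc2a1 -0.2397 to 0.1657, Slc2a3 -0.4809 to 0.6663 and Xist -0.00943 to 1.219.

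Same-numbered Th1 KO and Th1 WT libraries did not pair: their deviations correlated at -0.42 to 0.166, and 0 of 5 matched their own number best. With the replicate number as a block, 0 genes were called in each of the 3 comparisons (2133, 389 and 1383 at an unadjusted p under 0.05). With replicate block, values of opposite sign were Prf1 0.01146, Ifng 0.3294, Slc2a1 0.06311 and Ddx3y 3.992. With replicate block, only the libraries of the compared groups, values of opposite sign were Prf1 0.2664, Slc2a1 0.06159, Cd8a 0.4176 and Ddx3y 0.2322. With genotype and number together as the block, which pairs cultures, the Th1 minus Th0 and Th1 minus Treg differences again had 0 calls. For Treg, 13 of 14 GTPases had an unadjusted p under 0.05, against 2050 of 21873 genes tested (9.37%). For Th0 it was 0 of 14, against 527 genes (2.41%). The Xist covariate, the left-out pairs of WT libraries and this block were chosen after seeing the data. A floor of 3 counts limits genes such as Clec5a, Gab1 and Mir150.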
